A study of Mus musculus with 8 samples.

Results

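Enteric neuron and glia genes are 8 genes that mark the nervous system of the gut wall: Nos1, Vip, Chat, Tac1, Elavl4, Prph, Uchl1 and S100b. They were chosen by name, as the rows of the expression table that carry the mouse gene identifiers of these symbols, and each of the 8 was found among 45777 genes. They were read in 4 colon libraries, 1 for each group of mice. The groups were a control group, a group with non-alcoholic steatohepatitis (NASH, fatty liver with inflammation), and groups given extracellular vesicles (EVs) of bovine colostrum at a low or a high dose. That both EV groups belong to the NASH model was read from the description of the study's design. The labels used here name no strain, sex, age, diet, dose amount or time, and do not say if a library holds 1 animal or a pool. Values are FPKM, fragments mapped to a gene, scaled by its transcript length and by the library's mapped reads, as the authors deposited them. With 1 library a group there is no replicate error, no test was possible, and each comparison describes 2 libraries.

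The enteric nervous system lies in the colon wall as a network of ganglia between the muscle layers and beneath the mucosa. Inhibitory motor neurons relax gut muscle with nitric oxide, made by the enzyme that Nos1 encodes, and with the peptide encoded by Vip. Excitatory motor neurons contract it with acetylcholine, made by the enzyme that Chat encodes, and with substance P, cut from the precursor that Tac1 encodes. Enteric glia surround these neurons and are commonly marked by S100b. In RNA of whole tissue, fewer cells of a type and less RNA per cell cannot be told apart. Some members are also made elsewhere: Chat in tuft cells and some lymphocytes, Tac1 and Uchl1 in some enteroendocrine cells, and S100b in adipocytes.

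The promoters of the 4 transmitter genes are shown because their transcripts fell into pairs with different patterns over the 4 libraries, described further on. Each line gives the 250 bases before a RefSeq transcription start (build GRCm38.p6), 5′ to 3′ on the strand of the gene. The start used for Vip lies inside the gene span given below, so the end of its window overlaps that span. Capitals mark TGACG or its reverse complement CGTCA, the core letters of the cAMP response element, which was searched on both strands. The Vip window is chr10:5638968-5639217 (+), the Tac1 window chr6:7554811-7555060 (+), the Nos1 window chr5:117866589-117866838 (+) and the Chat window chr14:32465910-32466159 (-).
Vip: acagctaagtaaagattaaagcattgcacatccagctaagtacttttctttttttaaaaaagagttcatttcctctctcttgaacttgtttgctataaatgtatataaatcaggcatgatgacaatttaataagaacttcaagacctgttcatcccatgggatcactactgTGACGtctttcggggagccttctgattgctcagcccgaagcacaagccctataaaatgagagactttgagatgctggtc
Tac1: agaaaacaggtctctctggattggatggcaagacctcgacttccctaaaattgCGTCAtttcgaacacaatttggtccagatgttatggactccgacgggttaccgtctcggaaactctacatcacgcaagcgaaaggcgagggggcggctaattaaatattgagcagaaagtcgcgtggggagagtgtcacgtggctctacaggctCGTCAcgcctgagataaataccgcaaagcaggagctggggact
Nos1: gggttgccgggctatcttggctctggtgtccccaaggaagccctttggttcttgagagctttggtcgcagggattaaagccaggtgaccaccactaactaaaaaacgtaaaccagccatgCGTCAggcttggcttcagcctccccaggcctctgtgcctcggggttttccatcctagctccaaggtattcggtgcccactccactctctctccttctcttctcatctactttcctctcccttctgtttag
Chat: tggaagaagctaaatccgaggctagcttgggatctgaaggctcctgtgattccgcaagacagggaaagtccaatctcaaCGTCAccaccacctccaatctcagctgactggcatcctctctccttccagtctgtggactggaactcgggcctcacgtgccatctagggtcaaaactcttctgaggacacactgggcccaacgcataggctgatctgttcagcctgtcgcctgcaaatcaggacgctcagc

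The letters TGACG stood in at least 1 window of 5 of the 8 genes, namely these 4 and Elavl4, against 19.8% of the 27025 genes with a window (17.8% of 32851 windows). Counted from the transcription start used for each window, Tac1 held 2 matches, beginning at -197 and -43, and Vip held 1, beginning at -79. Nos1 and Chat held 1 each, at -130 and -171. The longer form TGACGTC, which contains the first motif, stood only in the Vip window among the 8 genes, against 3.16% of genes. A TATA box, written TATAAA, stood in the windows of Vip and Prph, against 14.3% of genes. The Prph window lies inside the gene span given below. These matches describe letters and were not tied to the expression values.

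The colon libraries were alike in breadth, with 13863 to 14480 genes at 1 FPKM or more, but carried RNA of neighbouring organs in unequal amounts. The 8 genes listed for seminal vesicle and prostate summed to 15620 FPKM in the NASH library, and all 8 were listed at 0 in the other 3. Pancreatic enzyme transcripts summed to 2873 FPKM in the EV high library, against 83.5 to 209 in the others. Adipocyte transcripts summed to 111 FPKM in control, 372 in NASH, 172 in EV low and 78.0 in EV high. The 12 smooth muscle genes ranged far less, from 1647 FPKM (EV low) to 2113 (EV high), with 1854 in control and 1710 in NASH, and 12 colon epithelium genes summed to between 5760 and 6830 FPKM. The part of these tissues in the results below was not tested, and every ratio to NASH rests on the library that held the seminal vesicle RNA.

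Vip was the most abundant member. Vip (gene ID 22353, chromosome 10, 5639193 to 5647617, GRCm38.p6) stood at 14.1 FPKM in control, 24.6 in NASH, 24.7 in EV low and 29.4 in EV high. The control library was the lowest and the 3 libraries of the NASH model lay close together above it. All ratios are of FPKM + 1 on the log2 scale, where the differences of low genes come out too small. Vip was 0.76 higher in NASH than in control, 0.76 higher in EV low and 1.01 higher in EV high. The last value was the only 2-fold difference of any member in the 6 comparisons made. It fell under 2-fold with median-of-ratios scaling (0.92), a pseudocount of 5 FPKM (0.85) and relative to the smooth muscle median (0.94).

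Nos1, the partner of Vip in inhibitory neurons, had another pattern. Nos1 (gene ID 18125, chromosome 5, 117866839 to 117958840) stood at 1.53 FPKM in control, 1.84 in NASH, 1.33 in EV low and 3.42 in EV high. The EV high library stood apart, and the other 3 lay within a narrow range. The log2 ratio was 0.17 for NASH over control, -0.29 for EV low over NASH, 0.64 for EV high over NASH and 0.92 for EV high over EV low. The FPKM of Vip was 9.19 times that of Nos1 in control, 13.4 times in NASH, 18.6 times in EV low and 8.59 times in EV high, so the pair kept no fixed proportion.

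Chat, the acetylcholine enzyme, was the least abundant member and the only one below 1 FPKM in each colon library. Chat (gene ID 12647, chromosome 14, 32408203 to 32465909) stood at 0.451 FPKM in control, 0.497 in NASH, 0.425 in EV low and 0.836 in EV high. Like Nos1 it was highest in EV high and lowest in EV low, with log2 ratios of 0.04 for NASH over control and 0.36 for EV high over EV low. Relative to the smooth muscle median, EV low was above control in both (0.06 for Nos1, 0.16 for Chat). Per 1000 FPKM of summed smooth muscle transcripts, EV low was above control for Chat (0.258 against 0.243) but not for Nos1 (0.807 against 0.828). The FPKM of Nos1 stayed between 3.13 and 4.09 times that of Chat over the 4 libraries.

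Tac1 followed Vip rather than Chat in the low dose library. Tac1 (gene ID 21333, chromosome 6, 7555061 to 7562978) stood at 9.90 FPKM in control, 14.8 in NASH, 17.1 in EV low and 15.8 in EV high. Control was lowest and EV low highest. Its log2 ratio was 0.54 for NASH over control, 0.20 for EV low over NASH and 0.09 for EV high over NASH. The FPKM of Vip was 1.43 to 1.86 times that of Tac1 in the 4 libraries, whereas the FPKM of Tac1 was 21.9, 29.8, 40.3 and 18.9 times that of Chat in control, NASH, EV low and EV high. Enterochromaffin cells also make Tac1, and their markers were read beside it. Tph1, the serotonin-synthesis enzyme of these cells, stood at 5.88, 7.44, 9.25 and 5.59 FPKM in the same order, and Chga, a granule protein, at 23.2, 29.9, 41.0 and 27.5. Both were highest in EV low, as Tac1 was. In EV high over NASH they stood at -0.36 (Tph1) and -0.12 (Chga), and Tac1 at 0.09. That Tac1 value turned to -0.06 relative to the smooth muscle median and to -0.04 on protein-coding sums without genes held by 1 library. Over the whole enteroendocrine list, 6 of 10 kept genes were higher in NASH than in control and 8 of 10 higher in EV low than in NASH. Of all kept genes 57.0% and 43.3% were higher in these comparisons. In EV high 6 of 10 were lower than in NASH and 7 of 10 lower than in control, where 53.1% and 61.7% of all kept genes were higher. The summed FPKM of the list ran from 191 (NASH) to 260 (EV low), and no marker was at 0. Among its genes with the largest ratios, Insl5 stood at 43.7, 12.9, 24.3 and 32.8 FPKM in control, NASH, EV low and EV high. Pyy stood at 91.5, 50.3, 77.0 and 77.8 FPKM and Gcg at 38.9, 21.1, 25.4 and 32.9. Insl5, Pyy and Gcg were highest in control, where Tac1 was lowest, and lowest in NASH. Nts, at 4.19, 6.64, 7.08 and 1.84 FPKM, was highest in EV low and lowest in EV high. The part of enteroendocrine cells in the Tac1 values was not tested, and Tph1 and Chga were named after their values were seen.

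**Figure D1:**
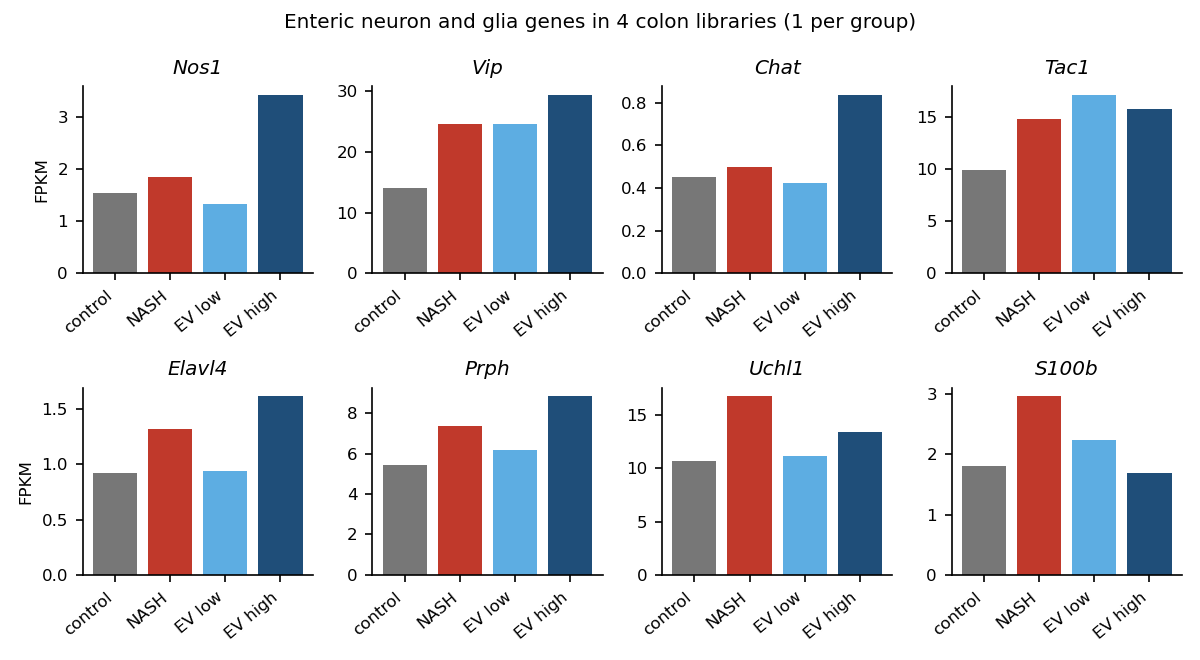
FPKM (vertical axes from 0, a scale of its own for each gene) of the 8 genes in the control, NASH, EV low and EV high colon libraries, 1 library per bar and no error. Nos1, Chat, Elavl4, Prph and Vip are highest in EV high, Tac1 in EV low, and Uchl1 and S100b in NASH.

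Among genes of the neuronal cell body, Uchl1 encodes a ubiquitin hydrolase known as PGP9.5 and widely used to stain enteric nerves. Uchl1 (gene ID 22223, chromosome 5, 66676121 to 66687234) stood at 10.7 FPKM in control, 16.8 in NASH, 11.2 in EV low and 13.4 in EV high. NASH was the highest library, and EV low lay near control. The log2 ratio was 0.61 for NASH over control, -0.54 for EV low over NASH and -0.30 for EV high over NASH, the lowest EV low ratio among the 8.

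Prph encodes peripherin, an intermediate filament of peripheral neurons. Prph (gene ID 19132, chromosome 15, 99053579 to 99058978) stood at 5.42 FPKM in control, 7.34 in NASH, 6.19 in EV low and 8.82 in EV high. Elavl4 encodes HuD, an RNA-binding protein of neurons, and Elavl4 (gene ID 15572, chromosome 4, 110203737 to 110351939) stood at 0.916, 1.31, 0.941 and 1.61 FPKM in the same order. Both had the same order of libraries, with EV high highest, NASH next, then EV low, and control lowest. Their log2 ratios for NASH over control were 0.38 (Prph) and 0.27 (Elavl4), for EV low over NASH -0.21 and -0.25, and for EV high over EV low 0.45 and 0.43.

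S100b, the glial calcium-binding protein, differed from the neuronal members in the high dose library. S100b (gene ID 20203, chromosome 10, 76253836 to 76261319) stood at 1.81 FPKM in control, 2.96 in NASH, 2.23 in EV low and 1.69 in EV high. NASH was highest and EV high lowest, with log2 ratios of 0.49 for NASH over control, -0.29 for EV low over NASH and -0.56 for EV high over NASH. The order NASH, EV low, control, EV high was also that of the summed adipocyte transcripts given above, but for S100b the last 2 places (-0.06 for EV high over control) swapped with same-sum scaling (0.05). In that list 8 of 8 kept genes were 2-fold or more higher in NASH than in control, against 2.43% of all kept genes. In EV high 8 of 8 were 2-fold or more lower than in NASH, against 1.43%. Adiponectin (Adipoq) stood at 5.31, 19.8, 9.63 and 3.16 FPKM in control, NASH, EV low and EV high, and the brown fat gene Ucp1 at 15.2 FPKM in NASH and at 0 in the other 3. The part of fat in the S100b values was not tested.

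The NASH model is compared with control to ask what the disease does to the colon. Each of the 8 members had its NASH value above its control value, from 0.04 (Chat) to 0.76 (Vip) on the log2 scale. All 8 stayed higher under each alternative scaling tried, while a pseudocount cannot change the sign. Of the 15245 genes that reached 1 FPKM in at least 1 colon library, 57.0% were higher at any size. None of the 8 was 2-fold higher or lower, against 2.43% and 1.97% of genes. The median log2 ratio of the 7 members that reached 1 FPKM was 0.49 (0.44 over all 8), and the median of all kept genes was 0.06. The smooth muscle genes, which share the layers that hold the myenteric ganglia, stood the other way in the values as deposited, with 10 of 12 lower in NASH and a median of -0.13. Scaling on protein-coding sums without genes held by 1 library raised ratios in this comparison, Vip from 0.76 to 0.95. The sign of a muscle median this near 0 therefore rests on the scaling.

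The EV doses are compared with NASH to ask whether the vesicles alter the colon of the model. In the EV low library 6 of the 8 were lower than in NASH and 2, Vip and Tac1, were higher, against 43.3% of genes higher at any size. Vip differed by 0.00197, and scaling on protein-coding sums without genes held by 1 library turned both Vip (-0.27) and Tac1 (-0.07) lower. None was 2-fold higher or lower, against 0.905% and 1.95% of genes, and the median of the 7 kept members was -0.25, against -0.06 over all kept genes. In the EV high library 6 of 8 were higher than in NASH and 2, Uchl1 and S100b, were lower, against 53.1% of genes higher, though Tac1 turned to -0.04 under the same scaling and to -0.06 relative to smooth muscle. None was 2-fold higher or lower, against 1.10% and 1.43% of genes, and the median of the 7 was 0.17, against 0.02 over all kept genes. Both sets of values share the NASH library.

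**Figure D2:**
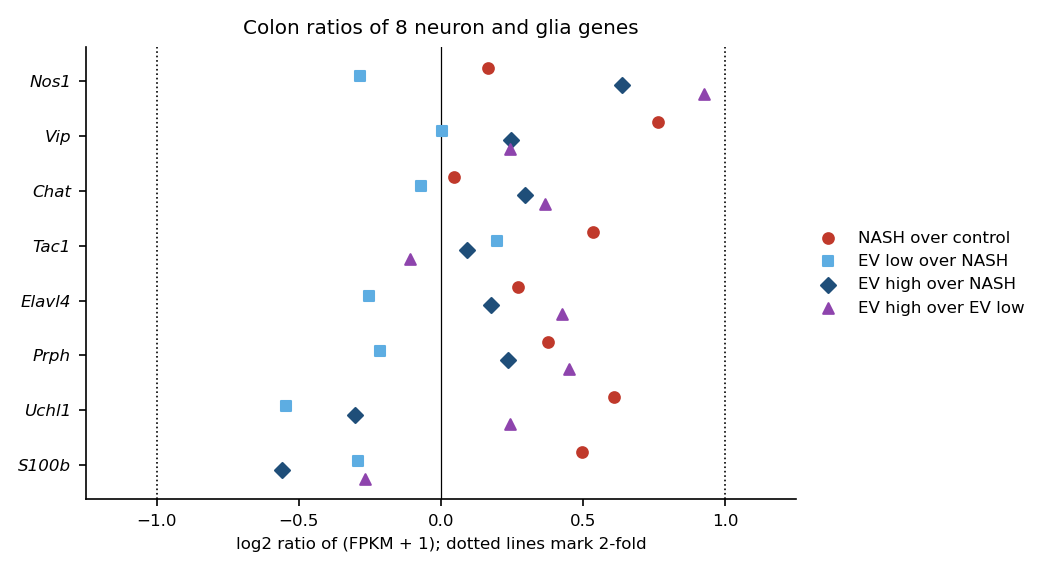
Log2 ratio of (FPKM + 1) on the horizontal axis for each of the 8 genes, with 1 symbol per comparison and dotted lines at 2-fold. Each NASH over control value is above 0, and the EV low over NASH values of 6 genes lie below 0.

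Comparing the doses leaves the NASH library out. EV high was above EV low in 6 of 8 members, with Tac1 (-0.11) and S100b (-0.27) below, against 61.1% of genes higher. The Tac1 value turned to 0.08 with libraries scaled to the same sum. None was 2-fold higher or lower on this scale, against 0.872% and 0.682% of genes. Nos1, at 0.92 here and 2.57-fold in plain FPKM, passed 2-fold with same-sum scaling (1.06), a pseudocount of 0.1 FPKM (1.30) and protein-coding sums without genes held by 1 library (1.01). The median of the 7 kept members was 0.24 and that of all kept genes 0.08. Smooth muscle genes were higher in EV high in 12 of 12 (median 0.32), and 6 of 6 genes of interstitial cells, the pacemaker and relay cells beside the nerves, were higher as well (median 0.39). Taken relative to the smooth muscle median the members' median was -0.0730, while Nos1 stood at 0.61 and Vip and Uchl1 turned to -0.07. Against 1000 FPKM of summed smooth muscle transcripts, Nos1 held 0.828 FPKM in control, 1.08 in NASH, 0.807 in EV low and 1.62 in EV high, and Vip 7.61, 14.4, 15.0 and 13.9. On that scale Vip was alike in the 3 NASH-model libraries, while Nos1 in EV high still lay above the rest. The part of muscle content in the dose difference was not tested otherwise.

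Set against control, EV low was higher in 6 of 8 members, with Nos1 (-0.12) and Chat (-0.03) lower, against 49.3% of genes higher. Elavl4 and Uchl1, at 0.02 and 0.06, turned to -0.02 on protein-coding sums without genes held by 1 library. None was 2-fold higher or lower, against 1.15% and 1.74% of genes, and the median was 0.16 beside -0.00308 over all kept genes. EV high was higher in 7 of 8, S100b (-0.06) being the exception, against 61.7% of genes, and S100b turned to 0.05 with same-sum scaling. Vip was 2-fold higher and none was 2-fold lower, against 1.33% and 1.27% of genes, and the median was 0.61 beside 0.07 over all kept genes. All comparisons with control share its library. Over the 4 libraries, control was the lowest for 5 members (Vip, Tac1, Elavl4, Prph and Uchl1), and EV high the highest for 5 (Nos1, Vip, Chat, Elavl4 and Prph).

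Other pan-neuronal genes, which encode synaptic, cytoskeletal and lineage proteins, were listed separately from the members. Of 24 such genes 15 reached 1 FPKM, and 15 of 15 were higher in NASH than in control (median 0.31), 11 of 15 lower in EV low than in NASH (median -0.18), and 14 of 15 higher in EV high than in NASH (median 0.20). None was 2-fold apart in these comparisons. Of all kept genes 57.0% were higher in NASH than in control, 43.3% higher in EV low than in NASH and 53.1% higher in EV high than in NASH. The same shares apply to the lists below. Snap25, a synaptic fusion protein, stood at 1.99 FPKM in control, 3.50 in NASH, 3.03 in EV low and 4.15 in EV high. Syt1, the calcium sensor of transmitter release, stood at 0.897, 1.77, 1.09 and 2.40 FPKM in the same order. Both had control lowest and EV high highest. Stmn2, a microtubule regulator of growing axons, stood at 2.58, 3.94, 2.87 and 4.31 FPKM, and Scg3, a secretory granule protein that endocrine cells also make, at 1.86, 3.05, 2.36 and 2.66, with its highest value in NASH.

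Of 5 further inhibitory transmitter genes listed, 4 were kept, and 4 of 4 were higher in NASH than in control (median 0.71), with 1 of them 2-fold higher. All 4 were lower in EV low than in NASH (median -0.99), with 2 of them 2-fold lower. Of all kept genes 2.43% were 2-fold higher in NASH than in control and 1.95% 2-fold lower in EV low than in NASH. Npy, the precursor of neuropeptide Y, stood at 0.589 FPKM in control, 2.99 in NASH, 0.322 in EV low and 0.149 in EV high, high in the NASH library alone. Its log2 ratio was 1.33 for NASH over control, -1.59 for EV low over NASH and -1.80 for EV high over NASH. Gal, the galanin precursor, stood at 1.44, 3.40, 0.982 and 3.99 FPKM, high in both NASH and EV high, with log2 ratios of 0.85 for NASH over control, -1.15 for EV low over NASH and 1.33 for EV high over EV low. Cartpt, another neuropeptide precursor, stood at 1.68, 2.69, 1.09 and 1.91 FPKM, and Slc17a9, a vesicular nucleotide carrier that is not restricted to neurons, at 12.1, 18.5, 11.6 and 16.8. These were highest in NASH and lowest in EV low.

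Npy is also made by sympathetic nerve cells, which use noradrenaline. Dbh, the last enzyme of noradrenaline synthesis, stood at 0.551 FPKM in control, 1.28 in NASH, 0.656 in EV low and 1.27 in EV high. Slc18a2, the vesicular monoamine carrier, stood at 0.724, 1.05, 0.695 and 1.18 FPKM in the same order. Both genes, the 2 kept of 4, were high in NASH and EV high alike. Th, the first enzyme of that pathway, was listed at 0.265 FPKM in NASH, 0.0316 in EV high and at 0 in control and EV low, and Slc6a2, the noradrenaline carrier, at 0.247 FPKM in NASH and 0.0246 or less in the others. Th and Slc6a2 lay below 1 FPKM in each colon library and were named after their values were seen. Whether nerve tissue came with the seminal vesicle and prostate RNA was not tested.

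Of 6 further excitatory genes 3 were kept. Penk, the enkephalin precursor, stood at 4.61 FPKM in control, 7.86 in NASH, 5.89 in EV low and 6.55 in EV high, Calb2, the calcium buffer calretinin, at 5.15, 6.33, 6.78 and 9.29, and Ache, which breaks down acetylcholine, at 1.87, 3.21, 2.11 and 3.54. All 3 were lowest in control, with a median of 0.56 for NASH over control and -0.36 for EV low over NASH. Over all 6 listed genes, without the filter, these medians were 0.26 and -0.11. The sensory and secretomotor genes went the other way: 4 of 5 kept genes of 10 were lower in NASH than in control (median -0.39, and -0.06 over all listed genes). Nmu, the neuromedin U precursor, stood at 5.09, 2.84, 4.20 and 5.01 FPKM, and Calcb, a calcitonin gene-related peptide of intrinsic sensory neurons, at 3.20, 1.82, 1.92 and 1.73. Sst, which endocrine D cells also make, stood at 11.5, 10.3, 7.10 and 10.7 FPKM. Htr3a, a serotonin-gated channel, was the exception at 2.12, 2.82, 1.90 and 4.34, highest in EV high as Nos1 was. Neuronal genes were thus not uniformly higher in the NASH library.

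**Figure D3:**
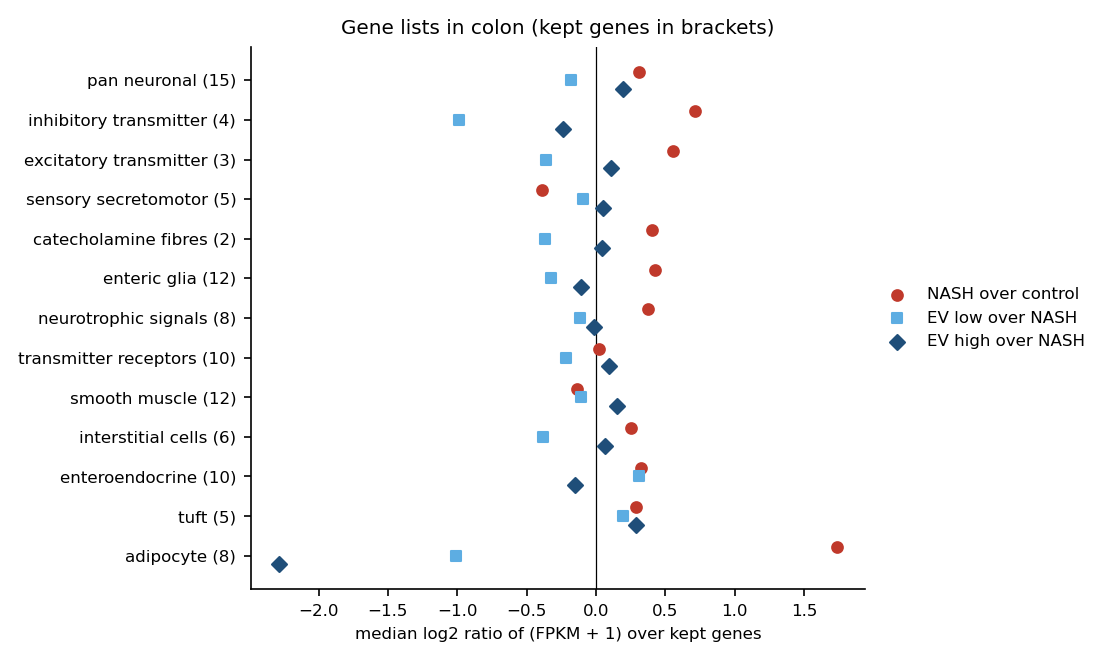
Median log2 ratio of (FPKM + 1) over the kept genes of each list (number kept in brackets), for NASH over control, EV low over NASH and EV high over NASH. Most nerve and glia lists lie above 0 for NASH over control and below 0 for EV low over NASH, the sensory list lies at -0.39, and the adipocyte list lies farthest from 0 among the lists plotted.

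The enteric glia list, which leaves S100b out, had 12 of 15 genes kept. In NASH 9 of 12 were higher than in control (median 0.42, 1 of them 2-fold), in EV low 12 of 12 were lower than in NASH (median -0.32), and in EV high 10 of 12 were lower (median -0.11). Of all kept genes 57.0%, 43.3% and 53.1% were higher in these comparisons, and 2.43% were 2-fold higher in NASH than in control. Cdh19, a cadherin of Schwann cell lineages, stood at 1.44 FPKM in control, 4.02 in NASH, 2.84 in EV low and 2.72 in EV high (log2 1.04 for NASH over control). Scn7a, a sodium channel of glia, stood at 5.40, 9.51, 7.44 and 8.39 FPKM, and Entpd2, an ectonucleotidase, at 3.15, 5.54, 3.28 and 4.09. Each was highest in NASH, as S100b was. Erbb3, the neuregulin receptor, stood at 42.4, 76.6, 67.0 and 75.9 FPKM, and colon epithelium also makes it. Gfap, an intermediate filament associated with glial activation, ran instead from 1.09 FPKM in control to 0.970 in NASH, 0.569 in EV low and 0.856 in EV high, and was named after its values were seen. The FPKM of S100b was 0.170 times that of Uchl1 in control, 0.177 in NASH, 0.200 in EV low and 0.126 in EV high, lowest in EV high. Myelin genes had 2 of 6 kept: Mbp stood at 10.1, 13.0, 9.59 and 11.6 FPKM and Pmp22, which other cells make too, at 72.7, 70.5, 86.8 and 92.8.

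Signals that maintain the enteric nervous system were mostly higher in NASH, with 6 of 8 kept genes of 12 above control (median 0.38) and none 2-fold apart. Of all kept genes 57.0% were above control. Gdnf, the ligand that supports enteric neurons through the receptor Ret, stood at 0.529 FPKM in control, 1.13 in NASH, 1.03 in EV low and 1.12 in EV high. Its co-receptor Gfra1 stood at 1.36, 2.27, 1.61 and 1.84 FPKM, and Edn3, the endothelin of neural crest cells, at 1.30, 2.63, 2.23 and 3.07. Control was lowest for each of these. Gfra2, the co-receptor for neurturin, was lowest in EV low, at 0.647 FPKM against 0.925 in control, 1.23 in NASH and 1.20 in EV high.

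The receptors through which these transmitters reach muscle and epithelium were listed as well: 6 of 10 kept genes of 12 were higher in NASH than in control (median 0.02), 8 of 10 lower in EV low than in NASH (median -0.22) and 8 of 10 higher in EV high than in NASH (median 0.10). None was 2-fold apart. Of all kept genes 57.0%, 43.3% and 53.1% were higher in these comparisons, with medians of 0.06, -0.06 and 0.02. Chrm2, the most abundant muscarinic receptor of gut muscle, stood at 6.40 FPKM in control, 4.33 in NASH, 4.26 in EV low and 6.75 in EV high, low in NASH and EV low. Vipr2, a receptor for the Vip peptide, stood at 1.92, 2.74, 1.46 and 2.10 FPKM, and Gucy1a1, a subunit of the nitric oxide sensor, at 6.26, 7.38, 5.53 and 7.38. Both were lowest in EV low.

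Other cell types that can make a member were read beside it. Tuft cell genes had 4 of 5 kept genes of 8 higher in NASH than in control (median 0.29), against 57.0% of all kept genes. The summed FPKM of the tuft genes was 11.2 in control, 14.4 in NASH, 15.6 in EV low and 17.0 in EV high. Lymphoid genes summed to 14.2, 15.1, 17.2 and 16.0 FPKM. Control was lowest for both sums. The tuft genes at 0 in any library numbered 1, in control. Their part in the Chat values was not tested.

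**Figure D4:**
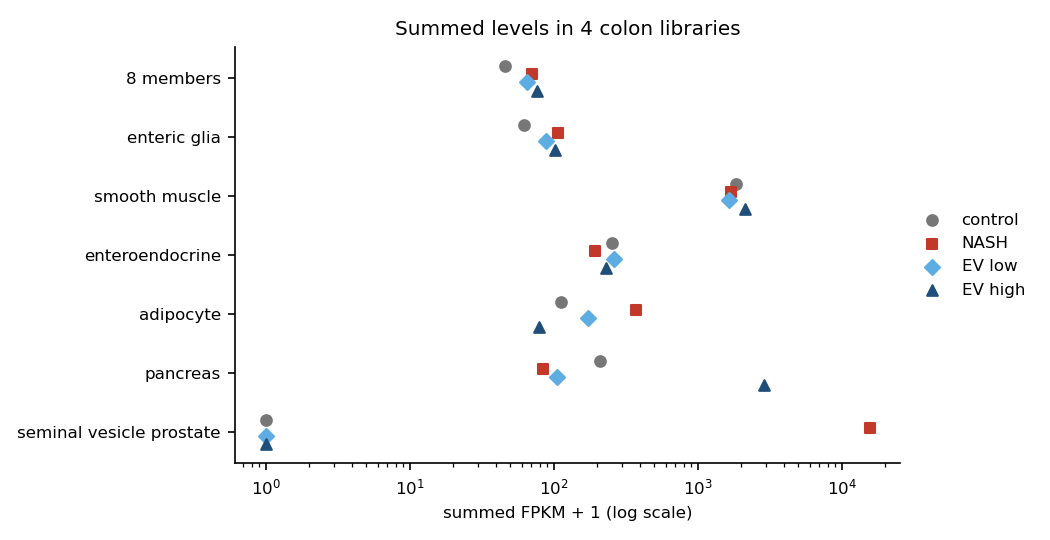
Summed FPKM plus 1 on a log axis for the 8 members and for lists of glia, smooth muscle, enteroendocrine, adipocyte, pancreas and seminal vesicle and prostate genes, 1 symbol per colon library. The members sum to 44.8 FPKM in control and 64.1 to 75.0 in the other 3, while the seminal vesicle list reaches 15620 FPKM in NASH alone. The glia list sums to 60.8 FPKM in control, 107 in NASH, 87.7 in EV low and 102 in EV high. Of these sums 42.4, 76.6, 67.0 and 75.9 FPKM are Erbb3, which colon epithelium also makes.

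Genes matched to a symbol, other than the members and predicted genes, were ranked for likeness to the members, and genes of the lists stayed in. The mean centred log2 profile of the 7 kept members was -0.31 in control, 0.15 in NASH, -0.05 in EV low and 0.22 in EV high. The 8944 ranked genes had 5 FPKM or more in some colon library. The 8 nearest by Euclidean distance over the 4 libraries were Rnf216 (0.0229), Letmd1 (0.0262), Pip4k2c (0.0293), Kdf1 (0.0336), Fam177a (0.0412), Ugcg (0.0415), Cnnm4 (0.0578) and Rptor (0.0628). The members themselves lay at 0.142 (Prph) and 0.186 (Elavl4) to 0.513 (Nos1) and 0.516 (S100b) from their own mean, and 49 ranked genes lay within 0.1. The 8 nearest were picked by distance out of 8944 genes and the members were not, so their smaller distances follow from the choice. Rnf216 encodes a ubiquitin ligase and stood at 5.94, 8.47, 7.17 and 8.86 FPKM in control, NASH, EV low and EV high, and Ugcg, a glucosylceramide synthase, at 17.3, 24.1, 20.2 and 25.6. None of these 8 genes is on a neuronal or glial list, but most genes of those lists stayed under 5 FPKM and were not ranked. Among pan-neuronal genes only Tubb3 and Scg2 reached that level, and among enteric glia genes only Erbb3, Scn7a and Entpd2. The absence was therefore largely set by the filter.

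In liver, which has few nerve cells, the members were nearly absent: no member exceeded 0.128 FPKM in any of the 4 liver libraries, 4 members were listed at 0 in each of them, and 7 were listed at 0 in the control liver.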

How the data were processed

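RNA of colon and liver was sequenced in 8 libraries, 1 for each group and tissue, named from the sample titles and matched to columns by the sample descriptions. The values are FPKM deposited by the authors in 1 table of 45777 NCBI gene identifiers, of which 45679 matched a symbol of GRCm38.p6. Per the labels' protocols, TRIzol and a RNeasy Plus kit gave the RNA, and a TruSeq stranded total RNA kit the libraries. Per the submitters' processing notes, Trimmomatic 0.38, HISAT2, StringTie and mm10 were used. Their roles, the depth and the use of strand in counting are not given here, so precision cannot be stated.

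Ratios were taken as log2 of (FPKM + 1) and counted as apart at 2-fold. A gene was kept at 1 FPKM in at least 1 of 4 colon libraries, which left 15245 genes and 7 of the 8 members. Chat was left out of medians only. With 1 library per group no test was run. The 18 gene lists, and the members, were chosen with earlier results of these data known. Named genes are the members, up to 4 genes per list with the largest absolute ratio, the 8 genes nearest in pattern, and those stated to be named after their values were seen. Alternatives were other pseudocounts, filters and scalings, ratios less the smooth muscle median, protein-coding genes only and the mean. Scaling on protein-coding sums without genes that hold over 75% of their colon FPKM in 1 library was chosen after seeing the data. The code was tested on simulated data. Promoter sequences are from RefSeq, all 8 members matched, and Python 3.11.15, numpy 2.4.6, pandas 2.3.3 and matplotlib 3.10.9 were used.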

Additional observations from a re-analysis of the deposited data

Results flagged for a closer look

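The liver libraries lie outside the colon comparisons. With a minimum of 0.1 FPKM, 2 members stood there above the control liver. Uchl1 was listed at 0 in the control liver, at 0.111 FPKM in the NASH liver and at 0.128 in the EV high liver. Prph was listed at 0 in the control liver and at 0.115 FPKM in the EV high liver. S100b and Nos1 were also above the control liver, but under that minimum, at no more than 0.0527 FPKM (S100b) and 0.0297 FPKM (Nos1). These values are far below 1 FPKM, and the depth behind them is unknown.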

How the results depend on the processing

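No paired analysis was possible because each group had 1 library. Leaving out a replicate was not possible for the same reason, and read depth is unknown. Of 312 gene ratios compared under the other pseudocounts, filters and scalings, 9 took the other sign, and so did 6 of 48 taken relative to smooth muscle. The values after these sign changes ran from -0.27 to 0.16, and no 2-fold difference reversed. Some moved by more than 0.25. For EV low over NASH, Vip went from 0.00197 to -0.27 and Tac1 from 0.20 to -0.07 on protein-coding sums without genes held by 1 library. For EV high over EV low, Vip and Uchl1 went from 0.24 to -0.07 relative to smooth muscle. A pseudocount or a filter cannot change the sign of a ratio. All 9 thus came from the scalings, and the 312 include many ratios whose sign was fixed. The single 2-fold difference, Vip in EV high over control, was lost (0 members) with a pseudocount of 5 FPKM, with median-of-ratios scaling and relative to the smooth muscle median, and the count rose to 2 members with a pseudocount of 0.1 FPKM, which added Nos1 (1.11). For EV high over EV low the count rose from 0 to 1, Nos1, with a pseudocount of 0.1 FPKM (1.30), with same-sum scaling and with protein-coding sums without genes held by 1 library (1.01). The median of the kept members moved to -0.0730 for EV high over EV low relative to smooth muscle, to 0.45 for EV low over control with a filter at 5 FPKM, which left 4 members, and to 0.24 for NASH over control with a pseudocount of 5 FPKM. Over the alternatives the NASH over control median ran from 0.24 to 0.64. Scaling on protein-coding sums raised the median of all kept genes in that comparison from 0.06 to 0.22. The members' median less that of all genes was 0.43 as deposited and 0.41 under that scaling. A scaling shifts both medians nearly alike, so it could hardly change this difference. With a pseudocount of 5 FPKM the difference was 0.21.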
